A study of Rattus norvegicus with 12 samples.

Results

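Small leucine-rich proteoglycans are secreted matrix proteins, and 8 of their genes were followed here in rat cells and in tumour exosomes: Dcn (decorin), Bgn (biglycan), Aspn (asporin), Lum (lumican), Fmod (fibromodulin), Prelp, Omd (osteomodulin) and Ogn (osteoglycin). They were chosen by gene symbol as the probes that the array's annotation assigns to these names. Each had 1 probe, so they make up 8 of the 13337 named genes on the array, and all 8 matched the rat gene table by gene ID.

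The family is known for horseshoe-shaped core proteins built of leucine-rich repeats, which bind collagen fibrils and set their width and spacing. Class I (Dcn, Bgn, Aspn) is known for chondroitin or dermatan sulphate chains, which Aspn lacks. Class II (Lum, Fmod, Prelp, Omd) is known for keratan sulphate or sulphated tyrosines, and Ogn belongs to class III. In the wall of the aorta, decorin and lumican are known mainly as products of adventitial fibroblasts and biglycan as a product of smooth muscle cells, and several members also bind TGF-beta or signal through surface receptors.

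All cells and vesicles were of the rat strain BDX, and the RNA of each sample was hybridised to 1 array. Aortic endothelial cells, called EC as in the labels, were starved overnight and kept for 24 h in medium with 2% serum, either with 10 µg/ml of exosomes of AS-Tspan8 cells, with 10 µg/ml of exosomes of AS cells, or with no exosomes, with 2 arrays in each group. AS is a rat pancreatic carcinoma line and AS-Tspan8 its derivative that stably expresses the tetraspanin Tspan8, with 1 array for each line. Exosomes, small vesicles shed by cells, were taken from serum-free medium of both lines after 36 h of starvation, with 2 arrays for each line. The labels do not say whether the 2 arrays of a group came from separate cultures, so the p-values measure a spread between arrays that may be technical, and the number of arrays limits the precision.

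Summed signal was 10383650 to 12705558 on the EC arrays, 21955880 and 13714493 on the arrays of AS-Tspan8 and AS cells, and 2390577 to 2924133 on the exosome arrays. A probe was called detected at a detection p-value under 0.01, which held for 8563 to 8923 probes on the EC arrays, 9389 and 9269 on those of the tumour lines and 2104 to 3604 on those of exosomes. The EC label was set against markers: of 15 endothelial markers, 3 passed the detection limit on every one of the 6 EC arrays and 11 passed it nowhere, among them Cdh5 (53.1 to 73.1) and Vwf (55.5 to 74.7), which define endothelium. The 3 that passed were also detected in both tumour lines. Egfl7 was at 131.1 to 156 on EC arrays and 148.7 to 255 in the lines, and Clec14a at 125.2 to 180.2 and 132 to 173.3. Ramp2 was at 891.2 to 2365 and 214.5 to 308.1. Of 13 fibroblast markers outside the proteoglycan family 11 passed on every EC array, as did 3 of 9 smooth muscle markers and 0 of 7 markers of tendon, cartilage and bone. The second array of EC with AS-Tspan8 exosomes stood apart, with a summed fibroblast marker signal of 45060, against 63270 to 71410 on the other EC arrays, and a summed smooth muscle marker signal of 1121, against 1924 to 2420. Such sums weigh the brightest probes most, in the fibroblast list Col1a2, S100a4 and Pdgfra, and include background. They do not measure the amount of a cell type. Differences between EC groups that rest on that array are given with and without it.

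Several family genes lie side by side in the rat genome. In the GRCr8 gene table Dcn, Lum, Kera and Epyc follow each other on chromosome 7, Ogn, Omd and Aspn on chromosome 17, and Optc, Prelp and Fmod on chromosome 13, while Bgn lies on chromosome X. RefSeq promoter entries of 300 bases, 250 before and 50 after the gene's start, were at hand for 5 members (Lum, Fmod, Ogn, Aspn, Omd). The 4 shown here belong to Lum, Fmod, and the chromosome 17 neighbours Ogn and Omd. On average the second EC arrays described below were higher than the first for Lum and lower for Fmod, Ogn and Omd. Each is printed 5′ to 3′ on the gene's strand, from GRCr8 at chr7:34245456-34245755 (Lum, plus strand), chr13:48045317-48045616 (Fmod, plus strand), chr17:15258946-15259245 (Ogn, minus strand) and chr17:15274821-15275120 (Omd, minus strand). Capitals mark matches, on either strand, to TATAAA (the TATA box), CCAAT (the CCAAT box), GGGCGG (the GC box), TGANTCA (the AP-1 element) or CAGAC (the SMAD half-element).
Lum: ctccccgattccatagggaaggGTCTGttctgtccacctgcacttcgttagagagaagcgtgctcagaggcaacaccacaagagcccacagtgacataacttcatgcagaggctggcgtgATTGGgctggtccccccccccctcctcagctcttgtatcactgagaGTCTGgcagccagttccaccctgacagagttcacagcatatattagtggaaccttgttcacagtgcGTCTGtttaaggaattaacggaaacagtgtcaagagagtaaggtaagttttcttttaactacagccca
Fmod: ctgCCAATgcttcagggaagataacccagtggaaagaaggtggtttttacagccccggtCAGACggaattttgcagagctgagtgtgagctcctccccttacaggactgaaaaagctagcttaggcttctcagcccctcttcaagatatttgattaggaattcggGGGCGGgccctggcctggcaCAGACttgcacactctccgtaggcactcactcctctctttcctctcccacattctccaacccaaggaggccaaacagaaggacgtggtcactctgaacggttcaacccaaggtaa
Ogn: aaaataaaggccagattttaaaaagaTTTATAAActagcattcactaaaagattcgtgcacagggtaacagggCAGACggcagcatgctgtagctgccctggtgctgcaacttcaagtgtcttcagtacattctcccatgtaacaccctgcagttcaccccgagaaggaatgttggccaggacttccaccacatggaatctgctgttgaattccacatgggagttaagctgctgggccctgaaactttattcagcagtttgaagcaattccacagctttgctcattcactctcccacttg
Omd: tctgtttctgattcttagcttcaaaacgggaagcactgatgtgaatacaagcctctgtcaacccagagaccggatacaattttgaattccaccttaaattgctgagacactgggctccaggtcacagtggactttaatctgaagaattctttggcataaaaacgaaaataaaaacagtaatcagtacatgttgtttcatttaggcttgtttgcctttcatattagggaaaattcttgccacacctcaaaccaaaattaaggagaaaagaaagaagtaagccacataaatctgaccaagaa

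CAGAC, the half-element to which SMAD proteins, the carriers of TGF-beta signals, are known to bind, occurred 3 times in the Lum promoter, 2 times in Fmod and 1 time in Ogn, and it was present in 50.1% of the 33469 promoters of the same length. CCAAT occurred 1 time in Lum and 1 time in Fmod, against 37.5% of all promoters with a match. The GC box GGGCGG occurred 1 time in Fmod, against 33.1% of promoters, and TATAAA occurred in Ogn as 2 overlapping matches on opposite strands, at 224 and 222 bases before the start, against 14.2%. The AP-1 element TGANTCA, found in 7.33% of promoters, had no match in these windows, and the Aspn and Omd windows held none of the 5 motifs. The Omd window could thus share no searched motif with any gene, and a link between motifs and signals was not tested.

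**Figure D1:**
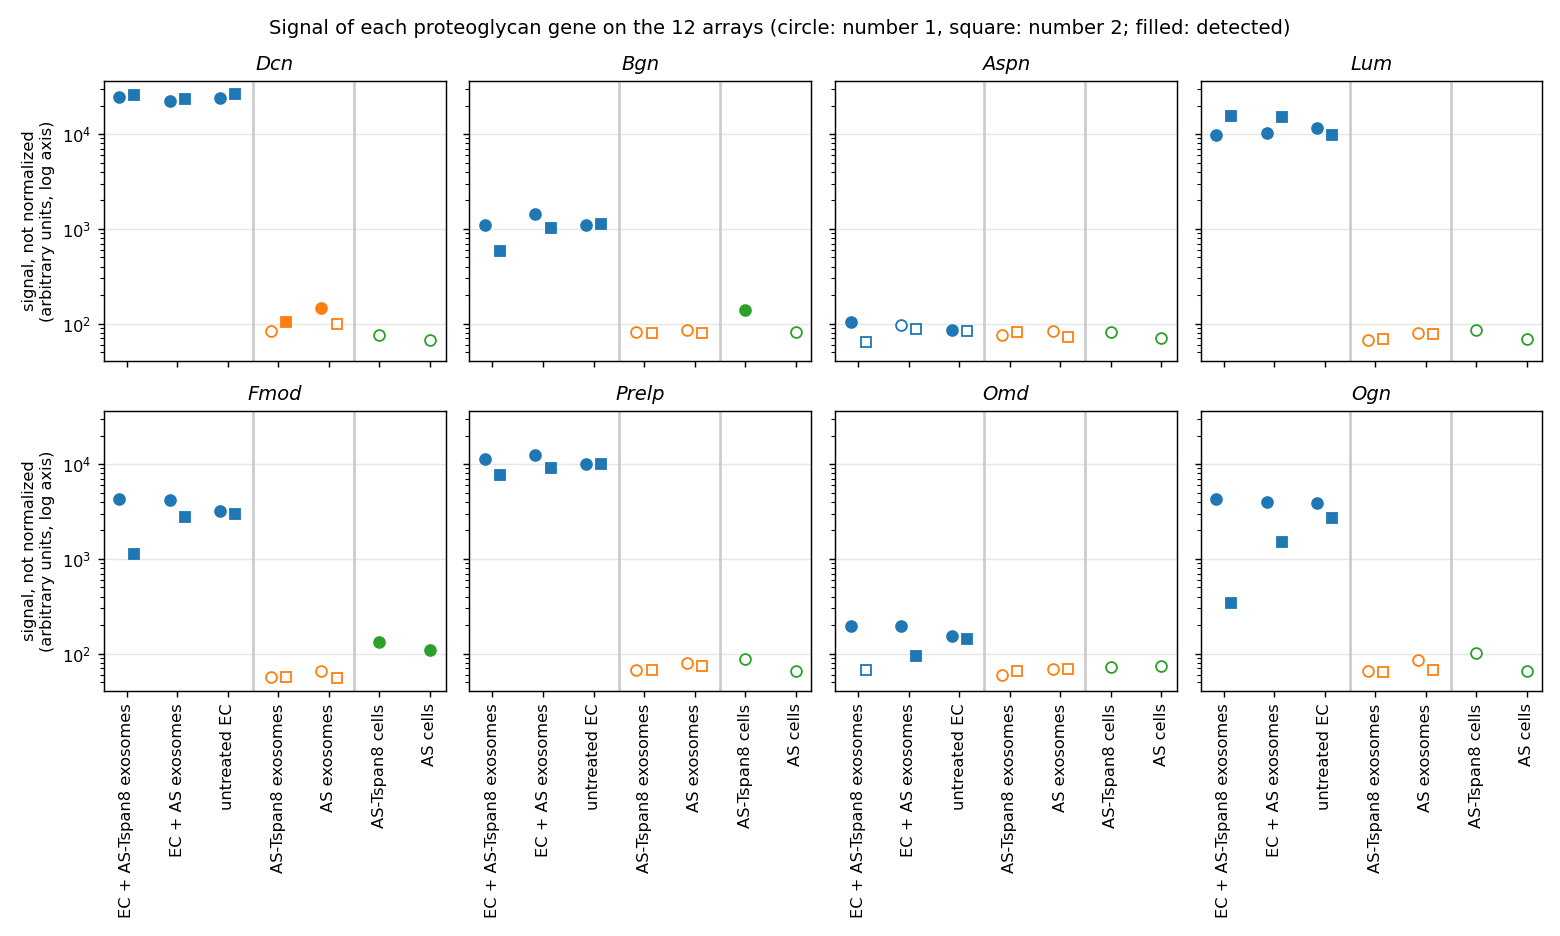
Signal of each of the 8 genes (not normalized, arbitrary units, log axis) on the 12 arrays, in 7 groups along the x axis. Circles are arrays numbered 1 and squares arrays numbered 2, and filled symbols are detected probes. Dcn, Bgn, Lum, Fmod, Prelp and Ogn are filled on all 6 EC arrays, and most symbols of exosomes and tumour cells are open.

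Every one of the 6 EC arrays carried signal above the detection limit for Dcn, Bgn, Lum, Fmod, Prelp and Ogn, while Omd passed it on 5 of 6 and Aspn on 2 of 6. In RNA of many cells, fewer cells of a type and less RNA per cell cannot be told apart, so these levels do not say which cells of the cultures carried the transcripts. Signals of different probes are on no common scale, and apart from the marker sums each gene is compared only with itself. The widest spread over the EC arrays belonged to Ogn, whose highest signal was 12.5 times its lowest, and the narrowest to Dcn at 1.19 times.

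Dcn, which coats collagen fibrils and is known to bind TGF-beta, EGFR and MET, had signals of 24430 and 25620 in EC with AS-Tspan8 exosomes, 22430 and 23750 in EC with AS exosomes, and 24320 and 26660 in untreated EC. On these signals EC with AS exosomes lay below both other EC groups, and after scaling between arrays all 3 groups overlapped. Bgn, a class I member that is also known to act on Toll-like receptors, had 1100 and 579 in EC with AS-Tspan8 exosomes, 1441 and 1011 in EC with AS exosomes, and 1103 and 1121 in untreated EC. Its lowest value was on the second array of EC with AS-Tspan8 exosomes. Aspn, known as a binder of TGF-beta and of collagen, ranged from 64.2 to 104.6 over the EC arrays with a median of 86.3, close to the background, and was detected on 1 array with AS-Tspan8 exosomes and 1 without exosomes.

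Lum, the keratan sulphate proteoglycan known for corneal transparency, had 9833 and 15350 in EC with AS-Tspan8 exosomes, 10180 and 15290 in EC with AS exosomes, and 11480 and 9683 in untreated EC. In both exosome groups its second array was the higher, and in untreated EC the first. Fmod, known to bind collagen and lysyl oxidase, had 4265 and 1125 in EC with AS-Tspan8 exosomes, 4209 and 2770 in EC with AS exosomes, and 3167 and 2952 in untreated EC. Both its highest and its lowest EC signal came from EC with AS-Tspan8 exosomes. Prelp, known to link basement membranes to the underlying collagen, ranged from 7689 to 12450 with a median of 10080. Omd, known from bone matrix, had 197.5 and 66.8 in EC with AS-Tspan8 exosomes, 196.5 and 94.9 in EC with AS exosomes, and 153.8 and 144.2 in untreated EC. The 66.8 was the only EC value of Omd that was not detected.

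Ogn, the class III member also called mimecan, had 4285 and 343 in EC with AS-Tspan8 exosomes, 4018 and 1497 in EC with AS exosomes, and 3852 and 2723 in untreated EC. Its second array was lower in all 3 groups.

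Untreated EC carried far more of 6 members than the tumour lines did. Dcn, Lum, Prelp, Ogn, Fmod and Bgn were higher in untreated EC at adjusted p under 0.05 (limma, Benjamini-Hochberg over 9972 features), by 5.01 for Bgn to 10.08 for Dcn on the background-corrected log2 scale, while Omd and Aspn did not pass. Of all features, 53.9% were called in this comparison and 24.7% were called higher and 29.1% lower in untreated EC (2468 and 2904 features). All 8 members kept untreated EC above both lines without overlap, which 78.9% of all features also did in one direction or the other. The median log2 difference of the 8 members was 6.59, against -0.02 for all features. Dcn, Lum, Prelp, Ogn, Omd and Aspn were detected in neither line and entered the fit through detection on EC arrays alone. Their calls and this median thus describe the members and are no separate support. Folds depended on the treatment of background, so each is given as the lowest and highest over the deposited signals and the main, unscaled, uncorrected, offset 50 and authors' processed values. Where a gene was not detected in the lines, each line's lowest detected signal, or the probe's own where higher, took its place, and the lowest such ratio is given as "at least".

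Dcn was at 24320 and 26660 in untreated EC, against 76.0 in AS-Tspan8 cells and 67.9 in AS cells, where it was not detected. Its log2 difference was 10.08 ± 0.18 (SE, limma, adjusted p = 3.35e-06), and it was at least 211-fold higher in untreated EC. Lum was at 85.0 in AS-Tspan8 cells and 68.7 in AS cells, detected in neither, and was at least 86.9-fold higher in untreated EC (limma, adjusted p = 1.44e-05). Prelp, at 87.2 and 66.3 in the AS-Tspan8 and AS lines and detected in neither, was at least 85.3-fold higher in untreated EC (limma, adjusted p = 3.35e-06). Dcn, Lum and Prelp were not well above background in either line.

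Ogn was at 102.6 in AS-Tspan8 cells and 66.2 in AS cells, detected in neither, and at least 28.7-fold higher in untreated EC (limma, adjusted p = 0.00328), with the widest standard error of the 8 (7.03 ± 1.14 on the log2 scale). Fmod was detected in both lines, at 131.4 in AS-Tspan8 and 109.7 in AS cells, and was higher in untreated EC by 6.16 ± 0.55 (log2, limma, adjusted p = 0.000298), with folds of 22.2 in the authors' table to 71.3 after background correction. Bgn was detected in AS-Tspan8 cells at 137.5 and not in AS cells at 82.5, and was higher in untreated EC by 5.01 ± 0.30 (log2, limma, adjusted p = 6.56e-05), with folds of 9.15 in the authors' table to 32.3 after background correction against a mean that includes the line without detection. Fmod and Bgn were the only members detected in a tumour line.

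Omd, with 153.8 and 144.2 in untreated EC against 73.1 in AS-Tspan8 and 73.9 in AS cells, differed by 2.13 ± 0.96 on the log2 scale with a 95% interval of -0.21 to 4.46 (limma, adjusted p = 0.106). It passed when either array of EC with AS-Tspan8 exosomes was left out (2.16 both times, adjusted p = 0.0269 without the first and 0.0275 without the second) and in the 4 arrays of untreated EC and tumour lines alone (2.33, adjusted p = 0.00229). Aspn differed by 0.49 ± 0.46 (limma, adjusted p = 0.392). The lines have 1 array each and were assumed to vary like EC. Without scaling between arrays, which moved the median of all features to -0.78, the same number of members, 6, were called, while the split over all features became 1142 higher and 5565 lower.

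**Figure D2:**
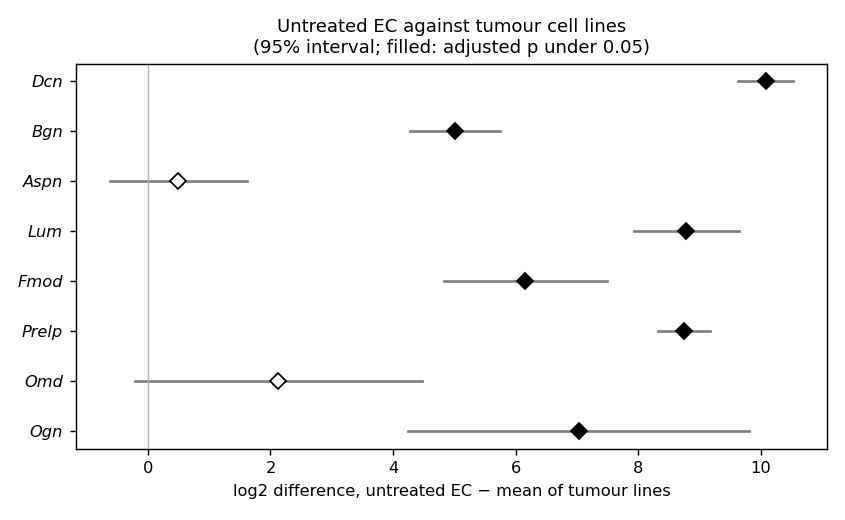
Log2 difference of each member between untreated EC (2 arrays) and the mean of the tumour lines (1 array each), with its 95% interval from limma. Filled diamonds passed adjusted p under 0.05. The differences of 6 genes lie between 5.01 and 10.08, and the intervals of Omd and Aspn cross 0. For genes not detected in the lines the difference rests on background signal.

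Between the lines, Fmod was at 131.4 in AS-Tspan8 and 109.7 in AS cells, a log2 difference of -0.14 after quantile scaling, 0.33 without scaling and -0.09 in the authors' processed table. The sign of this difference thus turned with the scaling. Bgn passed the detection limit in AS-Tspan8 cells alone, with a log2 difference of 0.31. With 1 array for each line there is no replicate check, and no test was made.

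Genes that build, bind or cut the family were also set against the tumour lines. Of the 2 tested proteoglycans of the family outside the 8, both were higher in untreated EC. Epyc, the class III neighbour of Kera, had 674.0 and 670.6 in untreated EC and was at least 6.74-fold higher there (limma, adjusted p = 0.000189), and Tsku, a secreted member known to act on Wnt and BMP signals, was higher by 1.82 ± 0.39 (limma, adjusted p = 0.00959). Kera, Optc, Chad and Nyx were detected on 0 of the 6 EC arrays.

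Collagens and cross-linking enzymes, the partners of these proteoglycans on the fibril, passed in 10 of 11 tested genes, with 9 higher and 1 lower in untreated EC and a median of 3.22. Col1a2 was at least 208-fold, Lox at least 91.6-fold and Col6a1 at least 58.9-fold higher (limma, adjusted p at most 1.49e-05), and Loxl2 was lower by 3.94 ± 0.18 on the log2 scale (limma, adjusted p = 2.22e-05). Among genes of chondroitin and dermatan sulphate synthesis, 3 of 12 were higher (Csgalnact1, Dse and Chst12) and 1 was lower (Chpf), with a median of 0.59. Over all features 24.7% were called higher and 29.1% lower, so the count of higher genes in this list was near that share. Dse, the epimerase that makes dermatan sulphate, was higher by 2.38 ± 0.18 (limma, adjusted p = 0.000153). Of 4 tested keratan sulphate genes, the galactosyltransferase B4galt4 was at least 7.95-fold higher (limma, adjusted p = 4.12e-05) and B3gnt2 was lower by 2.23 ± 0.32 (limma, adjusted p = 0.00198).

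After scaling all 5 tested receptors of the family passed and were higher in untreated EC, with a median of 1.31. Among them were Tlr2 (3.58 ± 0.16, limma, adjusted p = 2.02e-05) and Igf1r (at least 6.25-fold, limma, adjusted p = 3.24e-05). Cd14 was instead higher in the lines on the deposited signals (1.33-fold) and without scaling (1.34-fold). The lowest ratio of Egfr, detected in neither line, was 0.993 on the deposited signals. In the TGF-beta system 4 of 11 were higher and 0 lower with a median of 0.53, led by Ltbp2, a matrix protein related to TGF-beta binders, at least 30.4-fold higher (limma, adjusted p = 0.000129). Among proteases known to cut these proteoglycans 4 of 7 were higher and 1 lower with a median of 2.10, led by the aggrecanases Adamts1 and Adamts5, at least 15.4-fold and at least 15.8-fold higher (limma, adjusted p at most 3.38e-05). Of 10 tested large and cell-surface proteoglycans 5 were higher, among them Esm1 and Gpc3, and 3 were lower, among them Sdc1, the epithelial syndecan. Of the fibroblast markers outside the family, 10 of 13 were higher and 0 lower with a median of 3.40. Their summed signal was 45060 to 71410 on the EC arrays, against 3939 to 6357 in the tumour lines. Endothelial markers were higher in 2 of 4 tested genes (Ramp2 and Clec14a) and lower in 0, with a median of 0.68. Smooth muscle markers were higher in 3 of 3, with a median of 1.93. For pancreatic epithelium 1 of 3 was higher and 2 were lower. The part of cell type in the difference of the 8 members was not tested. Over all features 24.7% were called higher and 29.1% lower, and the lists were counted after scaling only. Genes detected on EC arrays alone entered the list counts because they were high there, so the counts describe the lists and are no separate support.

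No member of the family changed in EC with exosomes at adjusted p under 0.05. In all 3 comparisons between EC groups, limma called 0 of 9025 features (0%) and 0 of the 8 members, and no member had an unadjusted p under 0.05. At that unadjusted limit stood 117 features with AS-Tspan8 exosomes against none, 62 with AS exosomes against none and 51 between the exosome kinds, with 451 expected by the number of tests. These fits did not pair arrays by number, and with replicate number as a block the counts were 483, 166 and 188. Without the first array of EC with AS-Tspan8 exosomes, 4 members had an unadjusted p under 0.05 with AS-Tspan8 exosomes against none and 3 between the exosome kinds, with 0 past the adjustment, while 926 and 663 of all 8966 features (10.3% and 7.39%) also had one. Both exosome comparisons share the untreated arrays. After scaling the groups overlapped for all 8 members in each comparison, while 25.1%, 23.2% and 17.7% of all features did not overlap in the same order of comparisons. On the deposited signals Bgn did not overlap with AS-Tspan8 exosomes against none, Dcn and Aspn with AS exosomes against none and Dcn between the exosome kinds, against 25.2%, 12.5% and 27.3% of all features.

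With AS-Tspan8 exosomes against none, Dcn differed by 0.00 ± 0.20 (SE, log2), because it held the same rank on the arrays of each number, with a 95% interval of -0.47 to 0.47 and limma adjusted p = 1. Prelp differed by 0.04 ± 0.19 with an interval of -0.41 to 0.48. For Dcn and Prelp, differences larger than 0.5 lie outside the interval. Ogn differed by -1.39 ± 1.12 with an interval of -4.09 to 1.32, Omd by -0.57 ± 0.88 with -2.68 to 1.54, and Fmod by -0.36 ± 0.54 with -1.67 to 0.94 (limma, adjusted p = 1 for each). These intervals hold both large decreases and increases. Lum differed by 0.36 ± 0.37, Bgn by -0.36 ± 0.30 and Aspn by 0.14 ± 0.40.

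The differences of Ogn, Fmod and Omd came from the arrays numbered 2. Ogn differed by 0.21 within number 1 and by -2.98 within number 2, Fmod by 0.48 and -1.21, and Omd by 0.40 and -1.55. Without the second array of EC with AS-Tspan8 exosomes the signs turned, to 0.49 for Ogn, 0.55 for Fmod, 0.72 for Omd and 0.07 for Bgn, and Lum turned to -0.06. In the same comparison 12 of the 13 fibroblast markers had a negative difference, with a median of -0.42. So did 10 of 11 collagens and cross-linking enzymes, with a median of -0.30, against 0.003 for all features. In either list 0 genes passed the test. These counts were not made without that second array. Summed fibroblast marker signal was 69760 on the first and 45060 on the second array with AS-Tspan8 exosomes, against 65300 and 71410 in untreated EC. For collagens and cross-linking enzymes the sums were 64020 and 34660, against 56580 and 62840. The part of these lists in the values of the 8 members was not tested.

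With AS exosomes against none, the largest difference was that of Ogn, at -0.42 ± 1.12 with an interval of -3.12 to 2.28 (limma, adjusted p = 0.999), followed by Omd at -0.35 ± 0.88 and Lum at 0.30 ± 0.37. Lum was lower by number 1 (-0.24) and higher by number 2 (0.84), and Ogn was at -0.05 and -0.78. Dcn, Bgn, Fmod, Prelp and Aspn lay between -0.12 and 0.17. Between AS-Tspan8 and AS exosomes, Ogn differed by -0.97 ± 1.12, Fmod by -0.53 ± 0.54 and Bgn by -0.49 ± 0.30 (limma, adjusted p = 1.00 for each), and within numbers 1 and 2 these were 0.26 and -2.19 for Ogn, 0.18 and -1.25 for Fmod, and -0.25 and -0.73 for Bgn. Without the second array of EC with AS-Tspan8 exosomes they became 0.91 for Ogn, 0.38 for Fmod and -0.07 for Bgn.

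**Figure D3:**
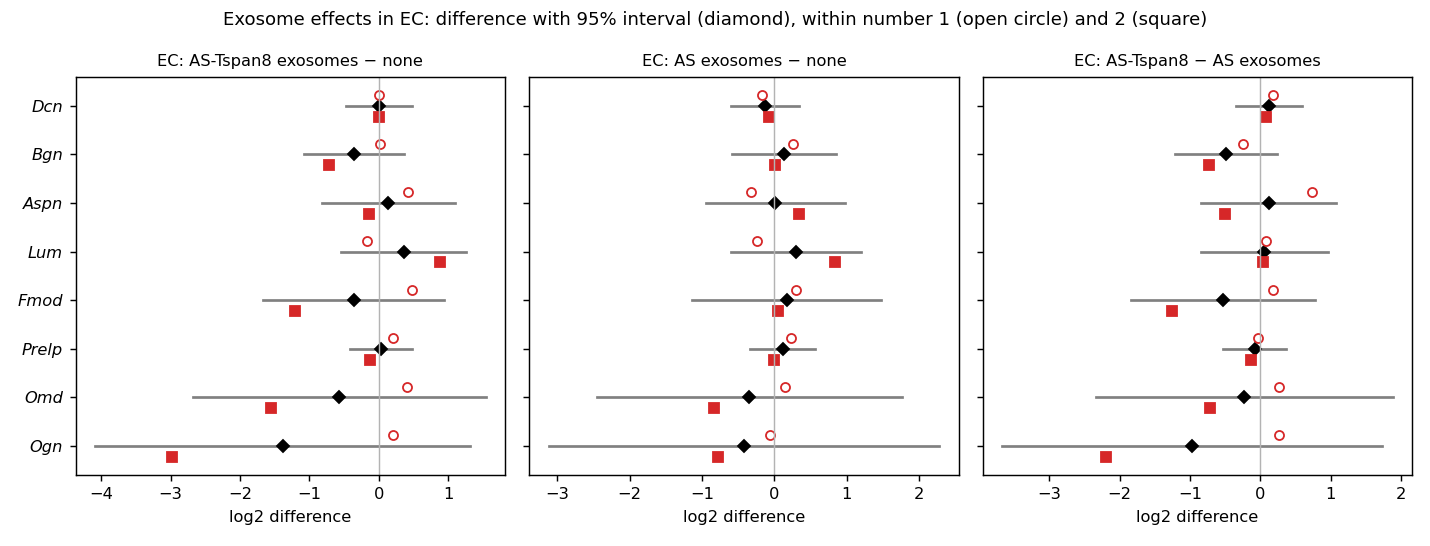
Log2 difference of each member in the 3 comparisons of EC groups, with its 95% interval (black diamond and line), and the difference within arrays numbered 1 (open circle) and 2 (filled square). Every interval crosses 0, and for Ogn, Fmod and Omd the square lies left of the circle in each panel.

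In each of the 3 comparisons 0 genes passed in every list fixed for the family (other family members, sulphate chain synthesis, collagens and cross-linkers, TGF-beta, receptors, proteases, other proteoglycans). With AS-Tspan8 exosomes against none, the protease Mmp3 differed by 1.12 ± 0.53 and the receptor Igf1r by 0.49 ± 0.24 (limma, adjusted p = 1 for both). The medians of these lists lay between -0.30 and 0.06 in that comparison and between 0.01 and 0.12 with AS exosomes against none.

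Between arrays numbered 2 and 1, no member passed adjusted p under 0.05 in the main fit. Same-numbered EC arrays deviated together, so arrays numbered 2 were also compared with arrays numbered 1 over the 3 EC groups, a comparison chosen after the values had been seen. Limma called 109 of 9025 features (1.21%) and 0 of the 8 members. The 109 became 0 without either array of EC with AS exosomes and 198 without the second array of EC with AS-Tspan8 exosomes. Unadjusted p was under 0.05 for 5 members, against 1935 of all features (21.4%), and 5 had groups without overlap after scaling (Dcn, Bgn, Fmod, Ogn and Omd), against 30% of all features.

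Ogn was lower on arrays numbered 2 by 1.86 ± 0.55 on the log2 scale (-1.86, limma, adjusted p = 0.131), and Omd differed by -1.60 ± 0.34 (limma, adjusted p = 0.0730). Omd passed without the first array of untreated EC (-2.10, adjusted p = 0.0432), without the second (-2.08, adjusted p = 0.0411) and without scaling between arrays (-1.55, adjusted p = 0.0341). Fmod differed by -0.79 ± 0.32, Aspn by -0.57 ± 0.23, Bgn by -0.44 ± 0.17 and Prelp by -0.17 ± 0.13, while Lum differed by 0.50 ± 0.23 and Dcn by 0.26 ± 0.12 (limma, adjusted p of 0.195 to 0.477). The members thus split by direction, with 6 lower and 2 higher on arrays numbered 2. Without the second array of EC with AS-Tspan8 exosomes 2 members had an unadjusted p under 0.05 in place of 5, against 1743 of all 8889 features (19.6%).

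The ratio of array 2 to array 1 was not the same in the 3 EC groups, on signals that were not scaled between arrays. The median signal of all probes on arrays 1 and 2 was 77.3 and 70.7 with AS-Tspan8 exosomes. It was 89.6 and 79.3 with AS exosomes, and 70.2 and 84.9 in untreated EC. Brightness of the whole array is thus part of each ratio, and the share of all features with a given order was not computed. For Ogn it was 0.0800 with AS-Tspan8 exosomes, 0.373 with AS exosomes and 0.707 in untreated EC, and for Fmod 0.264, 0.658 and 0.932 in the same groups. Omd (0.338, 0.483 and 0.938), Bgn (0.526, 0.702 and 1.02), Prelp (0.680, 0.723 and 0.993) and, outside the 8, Tsku (0.530, 0.742 and 1.04) had the same order, with the lowest ratio under AS-Tspan8 exosomes and the highest in untreated EC. Lum had the opposite pattern, with 1.56 under AS-Tspan8 exosomes, 1.502 under AS exosomes and 0.844 in untreated EC, and so did Epyc, with 1.86, 1.34 and 0.995. Dcn stayed between 1.05 and 1.10 in all 3 groups. With 1 array for each group and number no spread is left to test whether the ratio depends on exosomes.

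**Figure D4:**
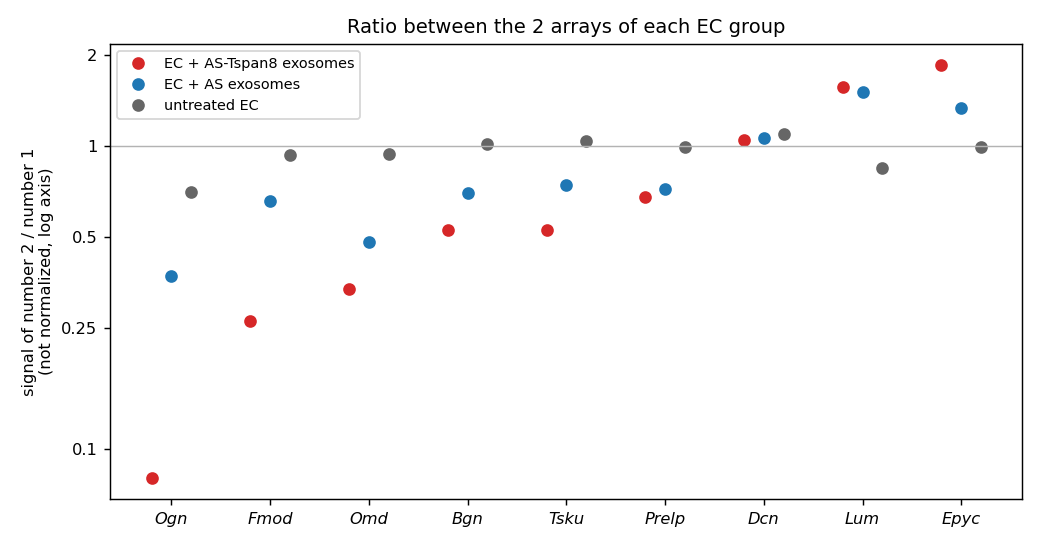
Signal of array 2 divided by signal of array 1 (not normalized, log axis) in EC with AS-Tspan8 exosomes, EC with AS exosomes and untreated EC, for 7 members and for Tsku and Epyc. Ogn lies at 0.0800, 0.373 and 0.707. Lum and Epyc lie above 1 in both exosome groups and below 1 in untreated EC, and Dcn lies above 1 in every EC group.

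Among partners of the family, the fibril-associated collagen Col14a1 was lower on arrays numbered 2 (-1.70 ± 0.27, limma, adjusted p = 0.0486), and so was Dpt, a matrix protein known to bind decorin (-2.32 ± 0.37, limma, adjusted p = 0.0486). They were the only called genes among 11 tested collagens and cross-linking enzymes and 13 fibroblast markers. Neither call held when either array of EC with AS exosomes was left out, or without the detection filter. Vcan, the large chondroitin sulphate proteoglycan versican, differed by 1.17 ± 0.20 (limma, adjusted p = 0.0562), Tgfb2 by -0.82 ± 0.20 (adjusted p = 0.0919) and the TGF-beta co-receptor Tgfbr3 by 0.58 ± 0.14 (adjusted p = 0.0884).

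Dcn was the only member to pass the detection limit on any tumour exosome array, at signals near background. Dcn was at 83.4 and 102.7 in AS-Tspan8 exosomes, 146.6 and 98.8 in AS exosomes, against 76.0 in AS-Tspan8 cells and 67.9 in AS cells. It was detected on 2 of 4 exosome arrays, the second of AS-Tspan8 and the first of AS, and in neither line. Its detection p-value was 0.00727 and 0.00485 on these arrays, and 0.0448 and 0.017 on the other array of each exosome kind. The other 7 members were detected on 0 of 4 exosome arrays, at signals of 55.2 to 86.4.

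Only Dcn and Fmod entered the fit of 9434 features, each through the group where it was high. Dcn was higher in exosomes by 2.42 ± 0.54 on the log2 scale (limma, adjusted p = 0.0202), and Fmod, which was detected in both lines, was lower by 0.73 ± 0.13 (-0.73, limma, adjusted p = 0.0120). In this comparison 60.8% of all features were called and their median was -0.82, so the value of Fmod was no lower than the median feature. The lower bound of the Dcn fold depended on the scaling, at 1.06 on the deposited signals, 1.04 without scaling, 4.12 after quantile scaling and 6.92 in the authors' table. For Fmod, not detected on any exosome array, the bound of lines over exosomes was 1.17, 1.49, 0.275 and 1.44 in the same order. A bound under 1 gives no direction, so the direction of Fmod after quantile scaling rests on background signal. Exosomes and cells did not overlap for either gene, which held for 75% of all features. Dcn did not pass without AS cells (1.81, adjusted p = 0.0531), without AS-Tspan8 cells (1.79, adjusted p = 0.116) or without scaling between arrays (0.88, adjusted p = 0.0808), where the median of all features was -3.63. Without the second AS-Tspan8 or the first AS exosome array it was detected on 1 array only and was not tested. Scaling to the same median of probes detected on all 6 arrays, which put the median of all features at 0.39, turned Fmod to 2.58. With the replicate block the adjusted p was 0.0457 for Dcn and 0.0369 for Fmod.

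In the authors' processed table Dcn read 285 and 1022 in AS-Tspan8 exosomes and 1164 and 314 in AS exosomes, against 69.9 in AS-Tspan8 and 68.8 in AS cells. The spread between exosome arrays in that table was thus wider than in the signal itself. The difference between exosomes and cells did not differ detectably between the lines for Dcn (interaction -0.14, limma, adjusted p = 0.994) or Fmod (0.14, adjusted p = 0.989). Between AS-Tspan8 and AS exosomes limma called 0 of 9434 features (0%, with 661 at an unadjusted p under 0.05 against 472 expected), and Dcn differed by -0.12 ± 0.72 with an interval of -2.32 to 2.08 (adjusted p = 0.974). The exosome kinds overlapped for Dcn and Fmod, while 40.1% of all features did not overlap.

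Col1a2, the collagen chain whose fibrils decorin binds, was also detected on all 4 exosome arrays, at 198.6 to 371.9, against 62.9 to 70.1 and no detection in the lines, at least 2.65-fold higher (limma, adjusted p = 0.00411). It was the only one of the 13 fibroblast markers outside the family with detection on any exosome array, and their summed signal was 1079 to 1336 in exosomes, against 3939 to 6357 in tumour cells and 45060 to 71410 on EC arrays. Genes of other lists were also called higher in exosomes. Among large and cell-surface proteoglycans 2 were higher (Gpc3 and Cspg4) and 4 lower. Among endothelial markers 2 were higher (Clec14a and Nos3) and 1 lower, and Nos3 was detected on 0 EC arrays. The part of EC or fibroblast RNA in the Dcn signal of exosomes was not tested.

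The genes whose pattern over the 12 arrays was most like a member's were ranked by Pearson correlation of log2 signal among 7659 named genes detected on at least 2 arrays. These correlations span the gap between EC and all other arrays, and over 0.99 stood 136 genes for Dcn, 109 for Lum, 155 for Prelp, 35 for Bgn, 23 for Ogn and 15 for Fmod. The highest were Akr1c13 for Dcn (r = 0.9987), the BMP antagonist Grem1 for Lum (0.9991), the complement factor Cfb for Bgn (0.9983), the cathepsin Ctsk for Fmod (0.9972), Tnfsf13b for Ogn (0.9975) and the PDGF receptor Pdgfra for Prelp (0.9995, equal to Cyb5a and Sirpa). Omd and Aspn had no gene over 0.99, with Acsm1 highest for Omd (0.9874) and Me3 for Aspn (0.9416).

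Over the 6 EC arrays alone some of these likenesses went and others stayed. Akr1c13 correlated with Dcn at -0.12 there and Grem1 with Lum at 0.64. Ogn kept 0.98 with Tnfsf13b, above 0.99 with both Cyp2e1 and Nkain4, and Omd kept 0.98 with Acsm1, Cldn22 and the matrix gene Mfap4. In these EC values the second array of EC with AS-Tspan8 exosomes is the lowest point of Ogn, Omd, Fmod, Bgn, Prelp and Aspn.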

How the data were processed

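RNA of 12 samples in 7 groups was hybridised to 1-colour Illumina rat arrays, per the labels. The authors deposited a table of signal intensity that was not normalized, with a detection p-value for each probe and array, per the file headers, and a processed intensity table whose method no label or header states. The detection columns carry one shared name and were paired with the signals by position, checked by rank correlation (-0.987 or stronger with the own array, at most -0.930 with any other). 0 columns of other samples were present.

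Of 22523 probes 13793 had 1 gene symbol and 8730 none. Intensities were background-corrected (normexp, negative controls inferred from detection p-values), given an offset of 16, quantile normalized and taken to log2 (limma 3.58.1, R 4.3.3), separately for the EC arrays (6), all cell arrays (8) and the arrays of exosomes and tumour lines (6). Features detected on at least 2 arrays, with the brightest probe of each gene, were tested with lmFit and eBayes and adjusted by Benjamini-Hochberg over all features. Quantile scaling lifts dim probes where few are detected, as in exosomes. The steps were tested on simulated data.

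Same-numbered EC arrays deviated together over features (r = 0.495, 0.375 and 0.555), so the numbers, taken from the labels, were read as pairs in EC; between exosome kinds r was -0.412. The members and lists were chosen with earlier results of these data known, and the comparison of replicate numbers after seeing them. Named were all members, up to 4 passing genes of a list with the largest differences or else up to 2 of lowest p, and the 3 genes most like each member. Alternatives changed the scaling, background correction, offset, filter, probe rule, block and table used, and left out each array in turn. The range of folds over settings and the overlap on deposited signals were added after the results were seen.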

Additional observations from a re-analysis of the deposited data

How the results depend on the processing

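Each tested difference was recomputed without scaling between arrays, without background correction, in the authors' processed table, without the detection filter, with an offset of 50, with the mean of a gene's detected probes and without each array in turn, and with the replicate block in the comparisons of EC groups and of exosomes. Apart from left-out arrays, 297 results kept their direction and side of the threshold, 5 turned and 3 crossed the threshold (2 gained and 1 lost a call). Without scaling, Prelp turned to -0.11 for AS-Tspan8 exosomes against none, Lum to -0.021 between exosome kinds in EC, and Fmod to -0.12 between exosome kinds. At the same median of commonly detected probes, Fmod turned to 2.58 for exosomes against cells and Dcn to 0.38 between exosome kinds. Members called for exosomes against cells numbered 2, 1 without scaling and 0 to 2 with an array left out. Members called for replicate number 2 against 1 numbered 0, 1 without scaling and 0 to 1 with an array left out. For untreated EC against the tumour lines 6 to 7 were called with an array left out. Fmod between the lines moved from -0.14 to 0.33 without scaling and -0.094 in the processed table. The cause of these changes was not tested.

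With 1 array left out, values for AS exosomes against none ranged from -0.28 to 0.034 (Dcn), -0.14 to 0.75 (Lum), -0.047 to 0.32 (Bgn), -0.024 to 0.37 (Fmod), -1.05 to 0.23 (Ogn), -1.15 to 0.46 (Omd) and -0.28 to 0.042 (Aspn). For AS-Tspan8 exosomes against none they ranged from -0.059 to 0.77 (Lum), -0.78 to 0.069 (Bgn), -1.28 to 0.55 (Fmod), -3.25 to 0.49 (Ogn), -0.12 to 0.20 (Prelp), -1.87 to 0.72 (Omd) and -0.16 to 0.72 (Aspn). Between exosome kinds in EC they ranged from -0.034 to 0.28 (Dcn), -0.39 to 0.50 (Lum), -1.45 to 0.38 (Fmod), -2.83 to 0.91 (Ogn), -0.23 to 0.079 (Prelp) and -1.52 to 1.07 (Omd). Between the exosome kinds themselves they ranged from -0.77 to 0.55 (Dcn) and -0.033 to 0.038 (Fmod).

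The replicate block, read as a pairing in EC, left 0 members called in each EC comparison, with Ogn at -1.39 for AS-Tspan8 exosomes against none (adjusted p = 0.806), and the features at an unadjusted p under 0.05 became 483, 166 and 188 in place of 117, 62 and 51. It changed no other call of a member. With crossed numbers as a block, chosen after seeing the data, 0 of 9434 features were called between exosome kinds. Features called for exosomes against cells numbered 5738, 8589 without scaling, 1986 without AS cells and 643 without AS-Tspan8 cells. Between exosome kinds 0 were called, against 304 at the same median and 39 or 45 without a cell array. For replicate numbers 109 were called, 265 without scaling, 179 with an offset of 50, 0 without the filter and 0 to 198 with an array left out. A detection limit of 0.05, also chosen later, left 6 members detected on all EC arrays. Signals near background limit Aspn, Omd and all exosome values.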
